A study of Rattus norvegicus with 18 samples.

Results

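The 7 genes described here encode proteins that act directly on viruses or on the nucleotides they need: the dynamin-like GTPases Mx1 and Mx2, viperin (Rsad2), its neighbour UMP-CMP kinase 2 (Cmpk2), tetherin (Bst2), the exonuclease Isg20 and the dNTP hydrolase Samhd1. They were chosen by gene symbol, and each matched 1 row among the 32883 genes of the deposited table. The tissue was cortical collecting duct, the tubule segment that sets the final salt, acid and water content of urine, dissected from kidneys of male Sprague-Dawley rats. One group had received lipopolysaccharide (LPS), a component of the bacterial outer membrane, and the other normal saline (Vehicle), both into the peritoneum and 3 h before dissection; no genotype is given in the labels. Each group held 3 numbered samples, and each sample 3 libraries of polyadenylated RNA.

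Values are TPM, a transcript abundance that accounts for transcript length, so levels of different genes can be set side by side. The number of genes that reached 1 TPM ran from 11399 to 12704 per library, and read numbers are unknown. Principal cell markers summed to between 9302 and 12900 TPM in LPS samples and between 15700 and 17470 TPM in Vehicle samples, and intercalated cell markers to between 5920 and 7643 TPM in LPS samples and between 8108 and 8529 TPM in Vehicle samples, so the duct label was borne out by its markers. One library stood apart for some of these genes. Vehicle 1 library 2 held 38.2 TPM of Mx1, 31.7 TPM of Mx2 and 11.0 TPM of Isg20, the highest Vehicle value of each. Rsad2, Cmpk2, Bst2 and Samhd1 had their highest Vehicle values in other libraries. Among LPS samples, LPS 1 was the lowest for all 7 genes. In bulk tissue, fewer cells of a type and less RNA per cell cannot be told apart.

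As background, LPS is sensed through Toll-like receptor 4, which can lead through the factor IRF3 to interferon beta, and type I interferon in turn activates transcription factors that bind interferon response elements in promoters. Mx proteins assemble into rings that block incoming viral particles; in rodents Mx1 is nuclear and Mx2 cytoplasmic. Viperin is a radical S-adenosylmethionine enzyme that turns CTP into a chain-terminating analogue, and Cmpk2 phosphorylates CMP and UMP in mitochondria. Tetherin holds budding enveloped virions at the cell surface, Isg20 degrades single-stranded RNA, and Samhd1 lowers the dNTP pool on which reverse transcription and DNA replication draw.

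The stretches before the transcription start are shown because interferon response elements are a known feature of such genes, and the letters can be compared between genes that changed to different extents. The RefSeq promoter table (build GRCr8) matched 6 of the 7 genes, all but Mx2. The core GAAANNGAA was searched on both strands (TTCNNTTTC on the other) in the 250 bases before the start, and 4 of the 6 genes held it, against 8.12% of 33469 promoters in the table. Capitals mark that core, and in Cmpk2 also the closer-spaced GAAANGAAA (TTTCNTTTC on the other strand), which was added after the sequences had been read and which 2.96% of promoters held. The Rsad2 stretch lies at chr6:48788233-48788291 on the minus strand, Cmpk2 at chr6:48802734-48802836 on the plus strand, Bst2 at chr16:18255059-18255123 on the minus strand and Isg20 at chr1:142239942-142240000 on the plus strand. Each is written in the direction of its gene.
Rsad2: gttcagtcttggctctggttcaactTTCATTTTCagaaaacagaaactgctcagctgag
Cmpk2: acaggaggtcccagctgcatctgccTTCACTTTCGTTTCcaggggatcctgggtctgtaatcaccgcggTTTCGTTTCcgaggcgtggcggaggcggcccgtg
Bst2: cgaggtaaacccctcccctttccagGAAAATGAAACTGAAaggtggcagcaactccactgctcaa
Isg20: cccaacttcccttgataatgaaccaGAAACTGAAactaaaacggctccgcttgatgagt

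The core began 146 bases before the start in Rsad2, 91 in Cmpk2, 131 in Bst2, where another match overlaps it, and 92 in Isg20. In Cmpk2 the closer-spaced form began 86 bases before the start, overlapping the core, and again 47 bases before it. The STAT core TTCNNNGAA, which reads the same on both strands and which 7.67% of promoters held in this window, was found in Bst2, where it overlaps the interferon core, and in Samhd1. The kappaB core GGANTTTCC (GGAAANTCC on the other strand), held by 1.08% of promoters, was in none of the 6. The windows of Mx1 and Samhd1 held neither interferon form. A match is a description of the letters and was not tested for binding.

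All 7 genes were higher after LPS, by between 1.87 (Bst2) and 8.19 (Rsad2) on the log2(TPM + 1) scale. With limma, 7 of 7 were called higher at an adjusted p under 0.05, against 7.17% of the 12393 tested genes, and their median change was 5.73 against -0.38 over all tested genes. Each had a Vehicle mean above the 1 TPM filter, so none passed it through the LPS group alone. In each of the 7 the lowest LPS sample lay above the highest Vehicle sample, as in 9.82% of tested genes, and the lowest LPS library lay above the highest Vehicle library, as in 5.12% of tested genes. The calls were lost without replicate 3 (0 of 7 called, log2 changes from 1.91 to 7.79, limma adjusted p from 0.196 to 0.271), with the median of a sample's libraries in place of their mean (0 of 7, limma adjusted p from 0.0545 to 0.081) and without a filter on low values (0 of 7, limma adjusted p from 0.0501 to 0.105). In each of these fits 7 of 7 were higher at an unadjusted p under 0.05. Without replicate 2 the call of Bst2 alone was lost (limma adjusted p = 0.0782).

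**Figure D1:**
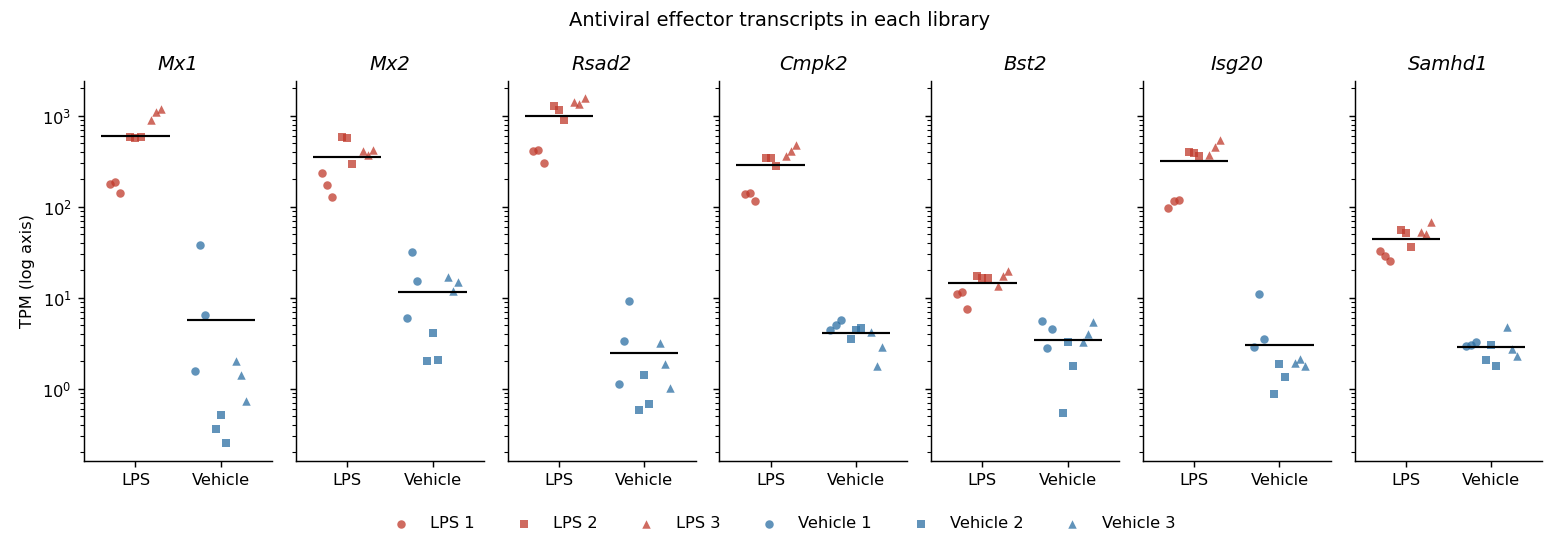
TPM on a log axis for each gene, LPS left of Vehicle; each point is 1 library, its shape the sample number, and the line is the mean of the 3 samples. No LPS library reaches down to a Vehicle library, and LPS 1 lies lowest in the LPS group for each gene.

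Mx1 (ENSRNOG00000001959) read 176, 186 and 143 TPM in the libraries of LPS 1, 584, 571 and 581 TPM in LPS 2 and 891, 1105 and 1199 TPM in LPS 3, against 1.55, 38.2 and 6.40 TPM in Vehicle 1, 0.36, 0.52 and 0.25 TPM in Vehicle 2 and 2.00, 1.43 and 0.73 TPM in Vehicle 3. The groups did not overlap, but Vehicle 1 was well above the other Vehicle samples mainly through its library 2, and LPS 1 was well below the other LPS samples. Mx1 averaged 604 ± 449 TPM in LPS and 5.71 ± 8.38 TPM in Vehicle (SD, n = 3 each), and rose by 7.26 (log2, SE 0.831, limma adjusted p = 0.00301). It was the 10th largest rise among the tested genes. Leaving out Vehicle 1 library 2 gave 7.61 (SE 0.690, limma adjusted p = 0.00382), and the ratio of mean TPM was 106 over all samples and 932 over samples 2 and 3 alone.

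Mx2 (ENSRNOG00000001963), the cytoplasmic form, had the highest mean Vehicle level of the 7. It read 232, 174 and 129 TPM in LPS 1, 579, 577 and 292 TPM in LPS 2 and 414, 371 and 421 TPM in LPS 3, against 5.94, 31.7 and 15.1 TPM in Vehicle 1, 2.00, 4.12 and 2.05 TPM in Vehicle 2 and 16.8, 11.8 and 15.0 TPM in Vehicle 3. Vehicle 2 was the low Vehicle sample here, and library 3 of LPS 2 read lower than the other libraries of that sample. Mx2 averaged 354 ± 158 TPM in LPS and 11.6 ± 7.86 TPM in Vehicle (SD, n = 3 each), a rise of 5.07 (log2, SE 0.573, limma adjusted p = 0.00291).

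By sample mean, the order of the pair reversed between the groups in pairs 2 and 3. It did not in pair 1, where Mx2 was the higher in both. By library, Mx1 exceeded Mx2 in 7 of 9 LPS libraries, the exceptions being library 1 of LPS 1 and library 2 of LPS 2. Among Vehicle libraries it did so in 1 of 9, library 2 of Vehicle 1. As a ratio of sample means, Mx1 over Mx2 was 0.944, 1.2 and 2.65 in LPS 1, 2 and 3, against 0.874, 0.138 and 0.0953 in Vehicle 1, 2 and 3. The change of Mx1 exceeded that of Mx2 by 0.72, 1.72 and 4.12 (log2) in pairs 1, 2 and 3, the same direction in each (exact two-sided sign permutation test, p = 0.25, the smallest that 3 pairs allow). Mx1 and Mx2 are related in sequence, and RSEM divides shared reads by estimate, so their split is uncertain. In GRCr8 they lie on the same chromosome with 1 annotated gene, Fam3b, between them.

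Rsad2 (ENSRNOG00000007539) was the most abundant of the 7 in every LPS sample and had the lowest mean of the 7 in Vehicle. However, Rsad2 was the lowest in no single Vehicle sample. It exceeded Samhd1 and Bst2 in Vehicle 1, Mx1 in Vehicle 2 and 3, and Isg20 in Vehicle 3. Its libraries read 411, 416 and 304 TPM in LPS 1, 1296, 1162 and 911 TPM in LPS 2 and 1436, 1361 and 1559 TPM in LPS 3, against 1.12, 3.35 and 9.17 TPM in Vehicle 1, 0.59, 1.42 and 0.68 TPM in Vehicle 2 and 3.14, 1.85 and 1.03 TPM in Vehicle 3. Again LPS 1 was low and Vehicle 1, here through library 3, was high, without overlap between the groups. Rsad2 averaged 984 ± 551 TPM in LPS and 2.48 ± 1.87 TPM in Vehicle (SD, n = 3 each), and its rise of 8.19 (log2, SE 0.516, limma adjusted p = 0.000389) was the 4th largest of the tested genes. Its median rank among tested genes by level stood at the 99.0 percentile in LPS samples and at the 8.45 percentile in Vehicle samples.

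Cmpk2 (ENSRNOG00000007690) lies next to Rsad2 in GRCr8 with 0 annotated genes between, on the opposite strand and transcribed away from it, and it rose less. It read 139, 141 and 117 TPM in LPS 1, 347, 342 and 282 TPM in LPS 2 and 360, 415 and 476 TPM in LPS 3, against 4.47, 4.98 and 5.75 TPM in Vehicle 1, 3.54, 4.41 and 4.60 TPM in Vehicle 2 and 4.21, 1.76 and 2.88 TPM in Vehicle 3. Its Vehicle libraries lay within 1.29 (log2), against 1.05 for Samhd1, the tightest of the 7, and 4.97 for Mx1, the widest. Cmpk2 averaged 291 ± 145 TPM in LPS and 4.07 ± 1.06 TPM in Vehicle (SD, n = 3 each), a rise of 5.73 (log2, SE 0.3995, limma adjusted p = 0.000491).

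Within a sample, Rsad2 over Cmpk2 was 2.85, 3.47 and 3.48 in LPS 1, 2 and 3, against 0.897, 0.214 and 0.680 in Vehicle 1, 2 and 3. Rsad2 was the higher of the pair in 9 of 9 LPS libraries and in 2 of 9 Vehicle libraries. The change of Rsad2 exceeded that of Cmpk2 by 1.91, 3.25 and 2.21 (log2) in pairs 1, 2 and 3, a mean of 2.46 ± 0.707 (SD; exact two-sided sign permutation test, p = 0.25, the smallest possible).

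**Figure D2:**
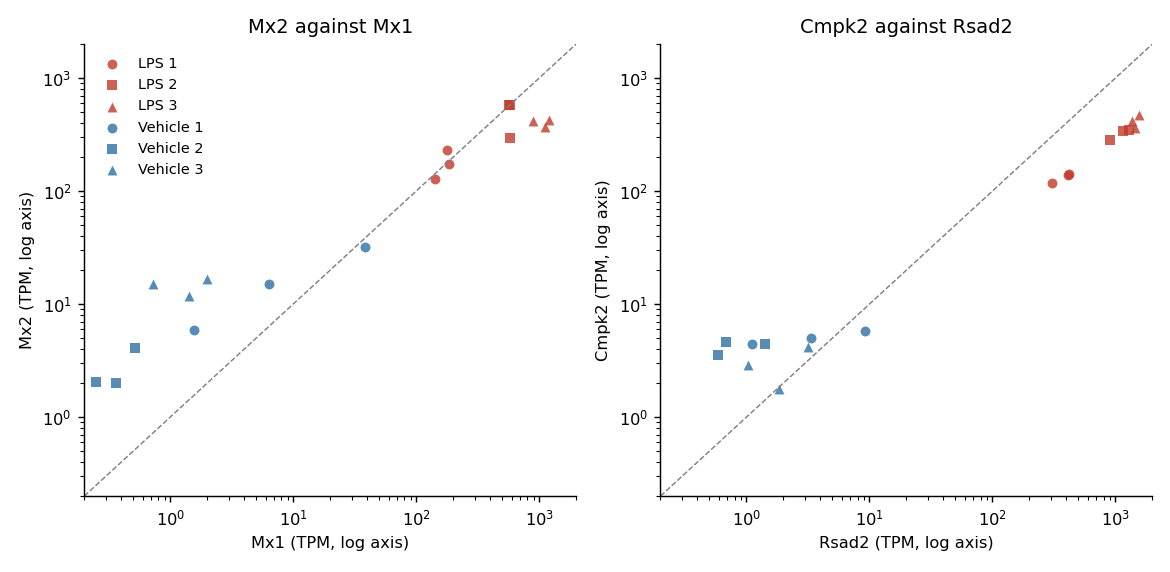
Mx2 against Mx1 and Cmpk2 against Rsad2, in TPM on log axes, 1 point per library, with the dashed line at equal levels. For both pairs most Vehicle libraries lie above the line; 7 of 9 LPS libraries lie below it for the Mx pair and 9 of 9 for Rsad2 and Cmpk2.

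Isg20 (ENSRNOG00000054561) read 97.2, 116 and 118 TPM in LPS 1, 397, 386 and 361 TPM in LPS 2 and 367, 455 and 547 TPM in LPS 3, against 2.87, 11.0 and 3.55 TPM in Vehicle 1, 0.87, 1.87 and 1.33 TPM in Vehicle 2 and 1.94, 2.10 and 1.78 TPM in Vehicle 3. The groups did not overlap, and Vehicle 1 library 2 was again the highest Vehicle value. Isg20 averaged 316 ± 182 TPM in LPS and 3.04 ± 2.42 TPM in Vehicle (SD, n = 3 each), and rose by 6.28 (log2, SE 0.579, limma adjusted p = 0.00143).

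Samhd1 (ENSRNOG00000006418) rose less. It read 32.5, 28.5 and 25.4 TPM in LPS 1, 55.9, 50.9 and 36.1 TPM in LPS 2 and 53.0, 49.98 and 68.2 TPM in LPS 3, against 2.98, 3.05 and 3.29 TPM in Vehicle 1, 2.06, 3.01 and 1.79 TPM in Vehicle 2 and 4.76, 2.73 and 2.30 TPM in Vehicle 3. No Vehicle sample stood out. Samhd1 averaged 44.5 ± 14.4 TPM in LPS and 2.89 ± 0.525 TPM in Vehicle (SD, n = 3 each), and its rise of 3.51 (log2) had the smallest SE of the 7, 0.258 (limma adjusted p = 0.000582).

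Bst2 (ENSRNOG00000059900), tetherin, rose least and was the least abundant of the 7 after LPS. It read 10.9, 11.4 and 7.56 TPM in LPS 1, 17.5, 16.6 and 16.6 TPM in LPS 2 and 13.5, 17.3 and 19.6 TPM in LPS 3, against 5.57, 2.83 and 4.55 TPM in Vehicle 1, 0.54, 3.28 and 1.76 TPM in Vehicle 2 and 3.29, 3.96 and 5.43 TPM in Vehicle 3. The gap between the groups was narrow, with the lowest LPS library at 7.56 TPM and the highest Vehicle library at 5.57 TPM. Bst2 averaged 14.6 ± 3.99 TPM in LPS and 3.47 ± 1.39 TPM in Vehicle (SD, n = 3 each), a rise of 1.87 (log2, SE 0.333, limma adjusted p = 0.0136).

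By pair, the log2 change of Rsad2 was 6.36, 9.22 and 8.98 in pairs 1, 2 and 3, that of Mx1 4.22, 8.72 and 8.83, and that of Isg20 4.22, 7.36 and 7.26. Cmpk2 changed by 4.46, 5.97 and 6.76, Mx2 by 3.50, 7.0 and 4.71, Samhd1 by 2.85, 3.88 and 3.80, and Bst2 by 1.06, 2.77 and 1.77. Pair 1 was the smallest for each gene. The log2 level of LPS 1 minus the mean of LPS 2 and 3 was between -2.22 (Mx1) and -0.72 (Bst2), beside a median of -0.74 over the 889 genes called higher, of which 723 were lowest in LPS 1, and a median of 0.22 over all tested genes.

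**Figure D3:**
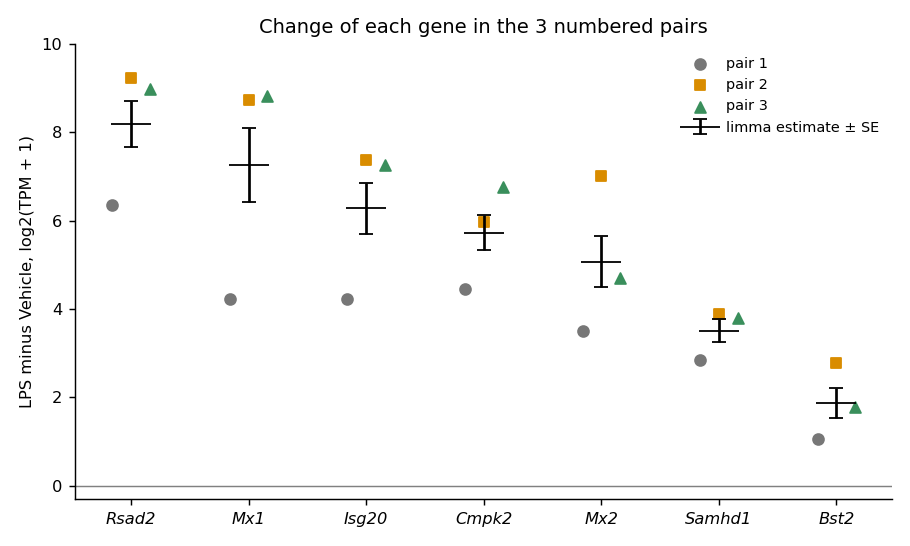
LPS minus Vehicle on the log2(TPM + 1) scale in each numbered pair (points), with the limma estimate and its SE (black). Genes run from the largest estimate, Rsad2 at 8.19, to the smallest, Bst2 at 1.87, and pair 1 is lowest throughout.

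The 7 genes together held 1005, 2954 and 3866 TPM in LPS 1, 2 and 3, against 55.8, 13.7 and 30.3 TPM in Vehicle 1, 2 and 3. Although that total was far lower in LPS 1 than in LPS 2 and 3, Rsad2 made up 37.5%, 38.0% and 37.6% of it in LPS 1, 2 and 3, against 8.14%, 6.55% and 6.62% in Vehicle 1, 2 and 3. The order of mean levels in LPS was Rsad2, Mx1, Mx2, Isg20, Cmpk2, Samhd1 and Bst2. Neighbours among the first 5 overlapped in their sample values, whereas Cmpk2 (lowest LPS sample 132 TPM) and Samhd1 (highest 57.0 TPM) did not, nor did Samhd1 (lowest 28.8 TPM) and Bst2 (highest 16.9 TPM). In Vehicle the order was Mx2, Mx1, Cmpk2, Bst2, Isg20, Samhd1 and Rsad2, and each neighbour pair overlapped. The places of Mx1 and Rsad2 in that order rest on Vehicle 1 library 2. Without that library the Vehicle mean of Mx1 was 1.91 ± 1.86 TPM, the lowest of the 7. Next above it were Isg20 at 2.17 ± 0.948 TPM and Rsad2 at 2.68 ± 2.20 TPM (SD, n = 3).

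The genes with the most similar profiles were found by the root mean square distance between 6-sample profiles, each taken as log2(TPM + 1) minus the gene's Vehicle mean, over the tested genes that are not among the 7. For Rsad2 they were Ifit2 (distance 0.417), Oasl (0.728) and Lcn2 (0.778), and for Mx1 they were Gbp2 (0.612), Oasl (0.715) and RGD1305184 (0.737). For Mx2 they were RT1-S3 (0.264), Ifitm3 (0.343) and Usp18 (0.373), for Cmpk2 Arid5a (0.242), Igtp (0.308) and Tap1 (0.312), and for Isg20 Socs1 (0.197), Angptl4 (0.296) and LOC685067 (0.336). For Samhd1 they were AABR07058464.1 (0.227), Selp (0.233) and Mt2A (0.242), and for Bst2 Adar (0.195), Tmem158 (0.196) and Ifi35 (0.199). Among the 7 themselves the closest pair was Cmpk2 and Isg20 at 0.535, while Rsad2 and Cmpk2 were 1.78 apart and Mx1 and Mx2 1.71 apart. The profiles were not scaled, so these distances also take in the different sizes of the rises given above.

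Other antiviral effector genes were also higher. Of 41 listed, 39 were in the table and 37 were tested. Limma called 31 higher and 0 lower, against 7.17% and 22.2% of all tested genes, with a median of 2.82 (log2) against -0.38. Among the 37, 5 had a Vehicle mean below 1 TPM and so passed the filter only through the LPS group. Of these, Gbp5, Helz2 and Zbp1 are among the genes called higher. The 3 with the smallest p were Ifit3, which encodes an RNA-binding antiviral protein, at 4807 ± 2362 TPM in LPS and 3.19 ± 1.40 TPM in Vehicle, Oasl, an oligoadenylate synthetase-like gene, at 530.5 ± 212 TPM in LPS and 2.52 ± 1.02 TPM in Vehicle, and Ch25h, the cholesterol 25-hydroxylase gene, at 35.8 ± 10.2 TPM in LPS and 1.65 ± 1.34 TPM in Vehicle (SD, n = 3 each). Of the 6 tested genes not called, Apobec3, Marchf8, Ifit1, Serinc3 and Serinc5 were named after their values were seen. Serinc3 and Serinc5 encode virion-incorporated restriction factors; their differences, LPS minus Vehicle, were 0.30 and -0.30 (log2). Ifit1, a relative of Ifit3, stood at 529.7 ± 915 TPM in LPS and 0.347 ± 0.484 TPM in Vehicle (SD, n = 3 each), an SD above the mean in both groups.

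Upstream, the ligand genes were at or near 0. Ifnb1, the interferon beta gene, averaged 0.236 TPM in LPS and was listed at 0 in Vehicle, Ifng averaged 0.321 TPM in LPS and was listed at 0 in Vehicle, and Ifna2, Ifnl1 and Ifnl3 were listed at 0 in every library. Of 27 genes for interferon ligands, receptors and signal transducers, 18 were tested. Limma called 12 higher and 0 lower, against 7.17% and 22.2% of all tested genes, with a median of 1.77 (log2) against -0.38. The smallest p values belonged to Usp18, a negative regulator of interferon signalling, at 276 ± 80.2 TPM in LPS and 6.70 ± 4.0 TPM in Vehicle, to Irf7, an interferon-inducible factor, at 891 ± 382 TPM in LPS and 10.9 ± 6.07 TPM in Vehicle, and to Irf9, at 144 ± 4.15 TPM in LPS and 32.8 ± 6.62 TPM in Vehicle (SD, n = 3 each). Of genes named after their values were seen, Stat2, for a signal transducer, rose by 2.17 (log2), while the receptor gene Ifnar1 stood at 19.3 ± 1.96 TPM in LPS and 20.0 ± 4.8 TPM in Vehicle (SD, n = 3 each) and Ifnar2 rose by 1.74.

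Relatives of the 7 by enzyme family, and genes of iron-sulfur cluster assembly, were also listed. Over all tested genes, 22.2% were called lower and 7.17% higher, with a median of -0.38 (log2). At an unadjusted p under 0.05, 4679 of the 12393 were lower and 1176 higher. Beside that, the list medians were -0.47 for the dynamin family and -0.60 for radical S-adenosylmethionine enzymes. They were -0.51 for iron-sulfur assembly and -0.31 for exonuclease relatives of Isg20. Of the dynamin family apart from Mx, 8 were tested and 0 called by limma, with 4 lower at an unadjusted p under 0.05, and the 3 with the smallest p, Dnm1l, Dnm2 and Mfn2, which act in membrane fission and fusion, stood at -0.53, -0.57 and -0.57 (log2). Of 6 tested radical S-adenosylmethionine enzyme genes other than Rsad2, 4 were called lower and 0 higher, with Cdk5rap1, Elp3 and Tyw1, which modify transfer RNA, at -1.05, -0.77 and -0.62. Of 9 genes of cytosolic iron-sulfur cluster assembly, which supplies clusters to cytosolic enzymes, 3 were called lower and 0 higher, Ciao1 at -1.17, Ndor1 at -0.69 and Mms19 at -0.87. Of 10 tested exonuclease relatives of Isg20, 1 was called higher and 1 lower: Trex1, a DNA exonuclease gene, stood at 212 ± 106 TPM in LPS and 19.0 ± 1.81 TPM in Vehicle (SD, n = 3 each), Rexo4 fell by 0.93, and Eri2 stood at -0.81 without a call.

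Genes of pyrimidine and dNTP metabolism, the substrates of Cmpk2 and Samhd1, were listed as well. Of 32 tested, 13 were called lower and 1 higher, against 22.2% and 7.17% of all tested genes. The median was -0.49 (log2), near the -0.38 of all tested genes. Rrm2, a ribonucleotide reductase subunit gene, averaged 4.10 ± 2.27 TPM in LPS and 14.9 ± 4.27 TPM in Vehicle, Dhodh, of pyrimidine synthesis, 3.90 ± 1.29 TPM in LPS and 10.7 ± 1.97 TPM in Vehicle, and Tyms, the thymidylate synthase gene, 37.0 ± 11.3 TPM in LPS and 76.1 ± 6.51 TPM in Vehicle (SD, n = 3 each). The gene called higher, named after its value was seen, was the pyrimidine nucleotidase gene Nt5c3a, at 72.5 ± 18.5 TPM in LPS and 38.5 ± 1.08 TPM in Vehicle (SD, n = 3 each). Cmpk1, the cytosolic relative of Cmpk2, also named after its value was seen, stood at 171 ± 5.92 TPM in LPS and 179 ± 7.92 TPM in Vehicle. With median-ratio scaling, under which the median of all tested genes was -0.04 in place of -0.38, 1 gene of this list was called lower and 2 higher, and with quantile normalization 2 lower and 2 higher; under both scalings limma called 0 of the radical S-adenosylmethionine and iron-sulfur lists (2 lower at an unadjusted p under 0.05 in the first list with each, and 1 and 3 in the second). The falls in these lists therefore depend on the scaling. Without replicate 2, limma called 0 genes of the 3 lists lower, with 6 nucleotide, 2 radical S-adenosylmethionine and 1 iron-sulfur gene lower at an unadjusted p under 0.05. In that fit 2272 of the 12393 tested genes were lower at the same threshold. Without Vehicle 1 library 2 the nucleotide list had 8 called lower in place of 13, and 16 in place of 15 at an unadjusted p under 0.05; over all tested genes 2376 were then called lower in place of 2757.

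**Figure D4:**
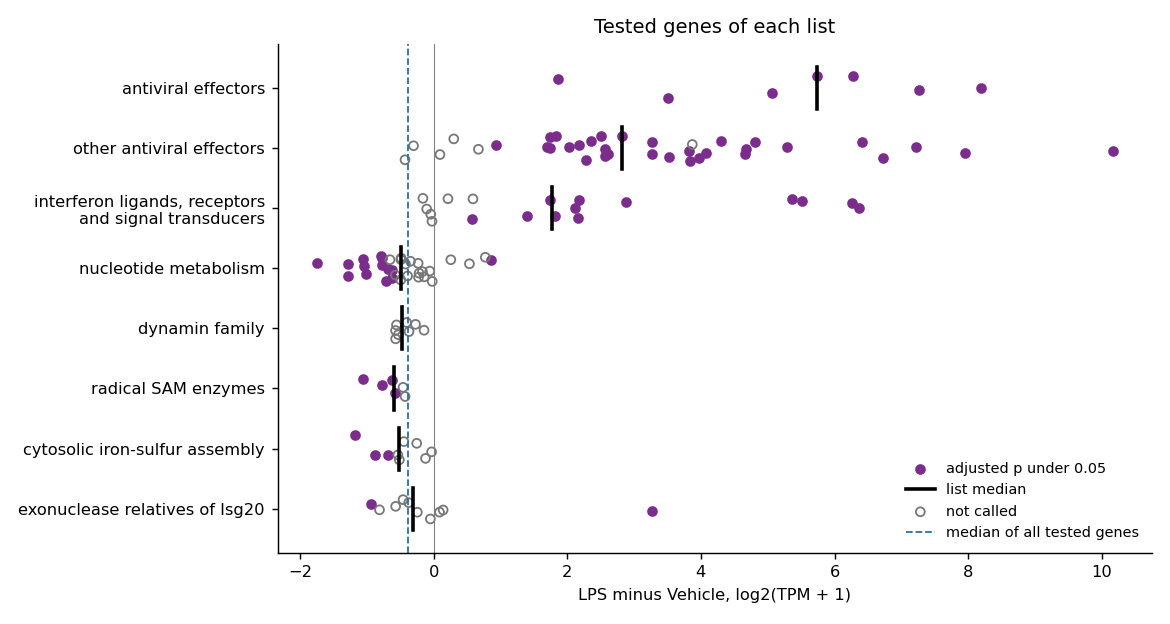
LPS minus Vehicle on the log2(TPM + 1) scale for the tested genes of each list, filled where the adjusted p is under 0.05; black bars are list medians and the dashed line the median of all tested genes, -0.38. The 7 antiviral effectors lie right of the dashed line at 1.87 or more, and most other antiviral and interferon signalling genes lie right of it. The medians of the remaining lists lie near the dashed line, with Trex1 far to its right.

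Markers of other cells moved with LPS in part. Over all tested genes, 7.17% were called higher and 22.2% lower. Of 15 macrophage and monocyte markers, 10 were tested, 4 called higher and 1 lower, and they summed to 449, 244 and 196 TPM in LPS 1, 2 and 3, against 259, 115 and 186 TPM in Vehicle 1, 2 and 3. LPS 1, the lowest LPS sample for the 7 genes, was the highest for this sum. Lyz2 was the most abundant marker of the list, at 152.5 ± 88.1 TPM in LPS and 113.5 ± 48.0 TPM in Vehicle (SD, n = 3 each). It was not called (limma adjusted p = 0.405), and the sums rest in large part on it. The genes called higher were Adgre1, at 4.87 ± 1.24 TPM in LPS and 1.09 ± 0.553 TPM in Vehicle, Fcer1g, at 49.5 ± 15.8 TPM in LPS and 17.3 ± 5.78 TPM in Vehicle, C1qa, at 13.2 ± 4.68 TPM in LPS and 5.16 ± 2.39 TPM in Vehicle, and Tyrobp, at 16.7 ± 6.97 TPM in LPS and 9.02 ± 3.58 TPM in Vehicle (SD, n = 3 each). The gene called lower was Csf1r, at 1.476 ± 0.7155 TPM in LPS and 3.998 ± 1.439 TPM in Vehicle (SD, n = 3 each). Of the 10 tested, 7 were higher at an unadjusted p under 0.05, against 1176 of all 12393 tested genes. Of the genes of the list that were not tested, Cx3cr1 averaged 0.06 TPM in LPS and 1.884 TPM in Vehicle. Ptprc averaged 1.144 TPM in LPS and 0.8311 TPM in Vehicle, and Mrc1 0.18 TPM in LPS and 0.2056 TPM in Vehicle. Cd163 averaged 0.0167 TPM in LPS and 0.0422 TPM in Vehicle, and Itgam 0.158 TPM in LPS and 0.163 TPM in Vehicle. Cd68 was tested and stood at 6.09 ± 1.42 TPM in LPS and 3.19 ± 0.552 TPM in Vehicle (SD, n = 3 each) without a call. Within Vehicle 1 the macrophage sum was 299 TPM in library 1, which held the most Bst2, 140.5 TPM in library 2, which held the most Mx1, Mx2 and Isg20, and 338 TPM in library 3, which held the most Rsad2, Cmpk2 and Samhd1. Of 7 neutrophil markers 2 were tested and both were called higher, S100a8, listed at 0 in Vehicle, and S100a9. Both had a Vehicle mean below 1 TPM, so they passed the filter only through the LPS group. The list summed to between 2.11 and 82.8 TPM in LPS samples and between 0.0933 and 0.390 TPM in Vehicle samples. Of the 5 not tested, Mpo, Elane and Ngp averaged 0.0200, 0.0278 and 1.53 TPM in LPS and were listed at 0 in Vehicle, Csf3r averaged 0.563 TPM in LPS and 0.0489 TPM in Vehicle, and Cxcr2 0.516 TPM in LPS and 0.192 TPM in Vehicle. LPS 3 library 3 alone held 232 TPM of the list, and without that library all 7 genes were still called, with Rsad2 at 8.17 and Bst2 at 1.83 (log2).

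Of 7 plasmacytoid dendritic cell markers, 4 were tested and 2 called higher, Spib and Irf8, against 7.17% of all tested genes. Tcf4 and Il3ra, at 0.13 and 0.05 (log2), were not called. Spib averaged 6.75 ± 2.05 TPM in LPS and 0.234 ± 0.148 TPM in Vehicle (SD, n = 3 each), so it passed the filter only through the LPS group. Irf8 also belongs to the interferon signalling list above. The defining Siglech stood at 0.0411 TPM in LPS and 0.0200 TPM in Vehicle. The list summed to between 44.3 and 63.7 TPM in LPS and between 24.99 and 26.2 TPM in Vehicle. Lymphocyte markers summed to between 8.52 and 11.6 TPM in LPS and between 6.81 and 11.9 TPM in Vehicle, with limma calling 0 of 2 tested (0 at an unadjusted p under 0.05). Endothelial markers summed to between 22.2 and 60.9 TPM in LPS and between 19.0 and 88.1 TPM in Vehicle. Of 6 tested, 1 was called higher and 1 lower, against 7.17% and 22.2% of all tested genes. Flt1, called higher, averaged 2.616 ± 0.774 TPM in LPS and 0.5433 ± 0.3448 TPM in Vehicle (SD, n = 3 each). It passed the filter only through the LPS group. Egfl7, called lower, averaged 2.497 ± 0.2721 TPM in LPS and 6.45 ± 2.598 TPM in Vehicle (SD, n = 3 each). Proximal tubule, thick ascending limb and fibroblast or mural markers had 0 called by limma of 1, 3 and 1 tested (0, 0 and 1 at an unadjusted p under 0.05), and summed at most to 12.1, 169 and 7.46 TPM in an LPS sample and to 15.1, 51.7 and 10.9 TPM in a Vehicle sample. The thick ascending limb sum came largely from LPS 2 library 1, at 404 TPM, against 46.5 and 58.1 TPM in the other libraries of LPS 2. The part of any of these cells in the rise of the 7 genes was not tested.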

How the data were processed

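Per the file headers and the labels, the deposited table holds 1 TPM column per library for 32883 Ensembl genes, and per the submitters' processing notes the authors used STAR 2.7.9a, RSEM 1.3.3 and the build Rnor_6.0. The annotation release is not given in the sources used here. Column names beginning with N were read as normal saline and L as LPS. TPM keeps no read number, so no counting interval is given, and RSEM shares reads between similar transcripts by estimate.

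TPM were converted to log2(TPM + 1), and the 3 libraries of each sample were averaged. The 12393 genes whose mean over all libraries reached 1 TPM were fitted with limma 3.58.1 in R 4.3.3 (two-sided, with a trend in the prior variance, and p adjusted by Benjamini-Hochberg over all of them), blocked on sample number, since the labels describe LPS and Vehicle as paired. Deviations from the group means were almost uncorrelated between same-numbered samples (r = 0.062, -0.017 and 0.069 across genes), so the pairing comes from the labels alone, which do not say what a pair shared; that equal numbers mark a pair was assumed. A gene was called at an adjusted p under 0.05. Residual degrees of freedom were 2 and prior ones 4.97. Fold changes on this scale understate the change of low genes. Nothing in the labels says that numbered samples came from separate animals, so the p-values reflect only how these samples vary, which may be technical. The fit was also run on simulated data in which both groups had the spread of the Vehicle samples and pairs shared nothing. That run cannot show how the fit behaves with the wider spread of the LPS samples.

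The 7 genes and the lists were chosen with earlier results of these data known. Of each list the 3 genes with the smallest p were named, and of each of the 7 genes the 3 nearest profiles. Oas1b, Ddx60, Mx3, Rsad1, Pecam1 and Col1a2 matched no row and were not analysed here. Sequences are from RefSeq, build GRCr8, matched by symbol; their coordinates are not those of Rnor_6.0. Fits were repeated with no block, over single libraries, and with other library summaries, pseudocounts, filters, scalings and variance models, leaving out each replicate number and, added after the data were seen, leaving out single libraries. Some genes of the lists are not reported here.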

Additional observations from a re-analysis of the deposited data

How the results depend on the processing

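Over 18 alternatives (15 planned, 3 that leave out single libraries added after the data were seen), the log2 change stayed positive for each of the 7 genes, and 6 of them kept their call in 15 and Bst2 in 14. Their ranges were 7.67 to 9.10 for Rsad2, 6.47 to 8.78 for Mx1 and 1.42 to 2.27 for Bst2. All 7 were called higher without the replicate block (912 genes higher and 3624 lower in all), and the block changed no call among them; without it limma called 3 dynamin genes and 3 exonuclease relatives lower, in place of 0 and 1. The number called higher was 0 with the median of the libraries and 0 without a filter, and from 0 to 7 when 1 replicate number was left out. The cause of these losses was not tested.

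Over all tested genes 889 were higher and 2757 lower (1176 and 4679 at an unadjusted p under 0.05). With the median of the libraries limma gave 0 and 0 (1019 and 4167 at an unadjusted p under 0.05), and without a filter 18 and 2 of 23716 (1382 and 5352 unadjusted). All 18 libraries with an estimated correlation gave 5295 lower, median-ratio scaling 812 higher and 484 lower, and quantile normalization 809 and 579. Leaving out 1 replicate number gave from 0 to 1004 higher and from 0 to 3595 lower, with limma calling 0 genes in either direction without replicate 3 and 738 and 1463 at an unadjusted p under 0.05. The list of other antiviral effectors had 0 higher with the median of the libraries and without replicate 3, 3 without a filter, and from 29 to 34 elsewhere. The nucleotide list ranged from 0 to 20 lower. Read number is unknown, so what depth limits cannot be stated.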
